A study of Mus musculus with 6 samples.

Results

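The 10 genes described here encode the peptide hormones of enteroendocrine cells (EECs), plus the enzyme that makes their serotonin: Sct, Cck, Gcg, Gip, Ghrl, Sst, Nts, Pyy, Tac1 and Tph1. They were taken by symbol from the 32285 genes counted in each of 6 single-cell RNA-sequencing libraries of mouse small intestinal organoids on day 3 of culture. Each gene was followed in cells holding 10 or more UMIs (unique molecular identifiers, 1 per captured transcript) of the granule genes Chga and Chgb together per 10000 UMIs, called Chga/Chgb cells below, and in the rest. These were 2905 of the 87954 cells kept. WT organoids, grown from the duodenum of adult mice, received vehicle (DMSO, -EIPA, n = 2 libraries) or EIPA, an inhibitor of Na+/H+ exchange (+EIPA, n = 2). CRISPR organoids were WT organoids carrying a lentiviral, doxycycline-inducible Cas9-EGFP and a guide to the first exon of the gene under study. They were kept without (-Dox, n = 1) or with doxycycline (+Dox, n = 1). The study derived such lines from individual organoids and does not state how many clones were sequenced. Sorting kept live cells, and in the +Dox library GFP+ ones alone, so that induction and that gate cannot be told apart. WT and CRISPR organoids differed by line, clone, virus and preparation together, which cannot be told apart either.

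EECs are scattered secretory cells of the gut epithelium that sense luminal nutrients and release hormones from dense-core granules. They arise from crypt progenitors that switch on Neurog3, and mature into enterochromaffin cells, which make serotonin and often tachykinins, and into several kinds of peptide-hormone cells. Chromogranins, encoded by Chga and Chgb, are granule proteins used as general EEC markers.

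The members fall into groups by product. Sct, encoding secretin, Cck, encoding cholecystokinin, and Gip, encoding glucose-dependent insulinotropic polypeptide, are products of the proximal intestine. Gcg, encoding proglucagon, the source of GLP-1, together with Pyy, encoding peptide YY, and Nts, encoding neurotensin, are known best from the distal gut. Ghrl encodes ghrelin and Sst somatostatin, an inhibitor of the release of other hormones. Tac1, encoding the substance P precursor, and Tph1, the rate-limiting enzyme of serotonin synthesis in the gut, mark enterochromaffin cells. In GENCODE M21 (mm10) Sct lies at chr7:141278330-141279133 and Tph1 at chr7:46644641-46672537, both on the minus strand. Gip (chr11:96024545-96030831, plus strand) and Pyy (chr11:102106676-102107832, minus strand) share chromosome 11, Ghrl (chr6:113716119-113719880, minus strand) and Tac1 (chr6:7554879-7565834, plus strand) chromosome 6. Cck lies at chr9:121489824-121495694, Gcg at chr2:62474530-62483650, Nts at chr10:102481756-102490486 and Sst at chr16:23889573-23890958, on the minus strand in each case.

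The 250 bases before the start site of 4 members, from RefSeq (GRCm38.p6), are shown because these genes span the range of levels described below, from Gip, which was nearly absent from CRISPR organoids, to Tph1, which had the smallest difference between the lines in Chga/Chgb cells. They are chr7:141279134-141279383 (minus strand), chr9:121495695-121495944 (minus), chr11:96024295-96024544 (plus) and chr7:46672538-46672787 (minus), each upstream of the GENCODE 5′ end of its gene and outside annotated exons. Capitals mark CANNTG, the E-box letters bound by basic helix-loop-helix factors, a family that includes NEUROG3 and NEUROD1.
Sct: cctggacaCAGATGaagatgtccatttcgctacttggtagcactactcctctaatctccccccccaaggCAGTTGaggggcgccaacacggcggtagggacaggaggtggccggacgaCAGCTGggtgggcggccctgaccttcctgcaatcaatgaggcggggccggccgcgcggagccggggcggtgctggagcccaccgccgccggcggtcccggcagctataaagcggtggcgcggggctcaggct
Cck: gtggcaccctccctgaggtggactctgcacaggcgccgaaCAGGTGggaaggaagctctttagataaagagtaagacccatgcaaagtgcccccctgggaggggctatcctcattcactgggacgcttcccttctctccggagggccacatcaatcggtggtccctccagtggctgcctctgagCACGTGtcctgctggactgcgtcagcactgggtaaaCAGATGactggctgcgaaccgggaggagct
Gip: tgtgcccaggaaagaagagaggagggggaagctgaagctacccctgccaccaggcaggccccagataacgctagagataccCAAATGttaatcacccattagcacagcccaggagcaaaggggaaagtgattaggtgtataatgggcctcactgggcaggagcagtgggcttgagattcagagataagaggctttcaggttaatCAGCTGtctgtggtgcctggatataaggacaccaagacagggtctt
Tph1: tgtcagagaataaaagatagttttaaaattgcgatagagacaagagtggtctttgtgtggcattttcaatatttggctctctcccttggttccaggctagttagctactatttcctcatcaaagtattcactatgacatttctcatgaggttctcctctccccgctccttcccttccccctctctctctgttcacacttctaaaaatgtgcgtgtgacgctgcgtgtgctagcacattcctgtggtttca
Searched on both strands, Sct and Cck each held 3 such matches, Gip held 2 and the window of Tph1 shown held 0. Of all 32851 RefSeq promoter windows of this length, 66.2% held at least 1 CANNTG, so the match is common. TGACGTCA, the cyclic AMP response element, was found in 1.55% of all windows and among the members only in that of Sst (1 match). The palindrome TAATTA, a homeodomain motif, was found in 4.84% of all windows and among the members in that of Tac1 and in the second start site of Tph1. A match is a description of the letters and not of a bound factor.

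Depth and cell numbers differed between the libraries. Totals ran from 161670015 to 239368573 UMIs per library in 12083 to 18211 kept cells. Chga/Chgb cells made up 3.76% and 4.65% of the -EIPA cells (474 and 847), 4.87% and 3.58% of the +EIPA cells (643 and 511), 0.739% of -Dox (130) and 2.48% of +Dox (300). Their share was thus lower in both CRISPR libraries than in each WT library, a split of 4 against 2. An exact two-sided permutation test over libraries, which doubles the 1-sided p, gave p = 0.133, the smallest it can give for such a split. The 6 EEC markers summed to between 16317 and 21628 counts per 1000000 UMIs (CPM) in Chga/Chgb cells of WT. In CRISPR they summed to 10616 CPM in -Dox and 9147 CPM in +Dox. In the rest the sums were 30.6 to 46.2 CPM in WT, 6.76 CPM in -Dox and 21.6 CPM in +Dox. Chga and Chgb, which define the cells, made up most of each sum in Chga/Chgb cells, so the gap to the rest followed from the threshold. Of the others, Scg5, Cpe and Pcsk1n were lower in CRISPR, and Neurod1 overlapped (311 to 495 CPM in WT, 360 in -Dox and 230 in +Dox). One of the 6, Scg5, was at 0 in Chga/Chgb cells of +Dox. At most 78 cell barcodes were shared by any pair of libraries. Intervals below cover counting error only.

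Within WT Chga/Chgb cells, Gip was the most abundant member and Sst and Pyy the least. These are counts of 3′ tags, 1 per captured molecule whatever the transcript's length, in CPM. Gip stood at 10142 and 9460 CPM in -EIPA 1 and 2 and at 9498 and 12627 in +EIPA 1 and 2. Cck followed at 6267, 6731, 5234 and 8046 CPM in the same order. Their ranges did not overlap, nor did that of Cck with Ghrl (2979, 2788, 2114 and 1954 CPM). Sct, at 1967, 2077, 2415 and 3036 CPM, overlapped with Ghrl. Below them came Gcg (1649, 1735, 1290 and 1219 CPM), Tac1 (1082, 1037, 958 and 947 CPM) and Nts (711, 552, 1618 and 1574 CPM), whose range spanned those of Tac1 and most of Gcg. Tph1 was at 537, 491, 559 and 576 CPM. Pyy (435, 292, 287 and 389 CPM) and Sst (366, 268, 284 and 452 CPM) could not be ordered.

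**Figure D1:**
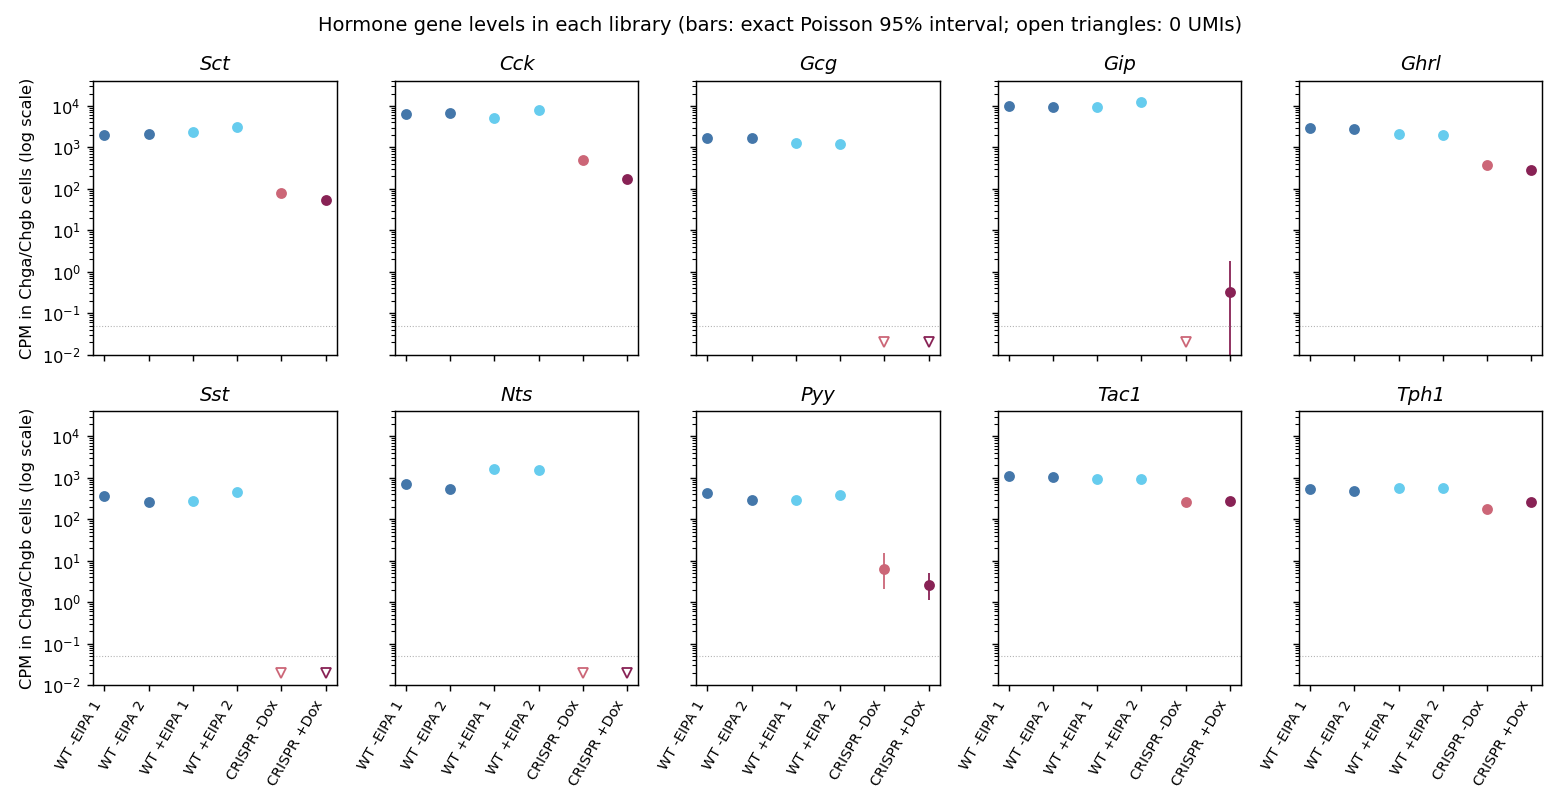
Levels of the 10 hormone genes in Chga/Chgb cells, in CPM on a log axis, 1 point per library with its exact Poisson 95% interval (most are smaller than the point). Open triangles under the dotted line are libraries with 0 UMIs and are not to scale. All 4 WT libraries lie above both CRISPR libraries for Sct, Cck, Ghrl, Tac1 and Tph1, and Gcg, Sst and Nts have 0 UMIs in either CRISPR library.

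These levels came from a small number of strongly expressing cells. A cell was called high in a gene at 10 or more of its UMIs per 10000. In WT, high cells held 99.4% to 99.8% of the Gip UMIs of Chga/Chgb cells and 98.9% to 99.7% of those of Nts, but 73.1% to 83.1% of those of Tph1, which was spread over more cells at lower levels. Among Gip-high cells the median was 507 to 626 UMIs per 10000 in the 4 WT libraries. Among Tph1-high cells it was 21.8 to 24.4 and among Sct-high cells 41.5 to 52.4 per 10000. Sct was high in 736 of the 2475 WT Chga/Chgb cells (20.7% to 35.6% per library) and Tac1 in 697 (25.5% to 30.6%), while Sst was high in 0.622% to 1.37% (4 to 9 cells per library). Hence Sst and Nts rest on few cells, 24 and 70 in the 4 WT libraries together.

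The members did not divide the cells evenly. Of WT Chga/Chgb cells, 58.4% in -EIPA 1, 72.6% in -EIPA 2, 68.3% in +EIPA 1 and 69.3% in +EIPA 2 were high in at least 1 member, and 40.3% to 50.3% in 2 or more. A few cells, 1 to 3 per WT library, were high in 6 members.

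Which hormones occurred together followed a clear division, seen in the plot of paired hormones. Of all 2475 WT Chga/Chgb cells, 736 were high in Sct, 555 in Cck, 333 in Gip, 217 in Gcg, 122 in Pyy, 70 in Nts and 24 in Sst. Cells high in Gcg were nearly all high in Cck (99.1% of 217 WT cells) and in Sct (91.7%). Pyy-high cells behaved alike, with 97.5% of 122 also high in Cck and 77.0% also high in Gcg. Of Nts-high cells, 84.3% of 70 were high in Sct and 71.4% in Cck. Gip-high cells shared these genes less often, with 72.1% of 333 high in Sct, 58.6% in Cck and 14.7% in Gcg. Of 397 Ghrl-high cells, 57.2% were high in Cck and 56.2% in Sct. Of the 24 Sst-high cells 15 were high in Gip (62.5%) and none in Gcg, Pyy or Nts. Since Gcg, Pyy and Nts were high in few of all cells, their absence among 24 cannot be read. The other side of the division was made up of Tac1 and Tph1. Of 586 Tph1-high cells 84.1% were Tac1-high, and of 697 Tac1-high cells 70.7% were Tph1-high. Only 1.37% of Tph1-high cells were high in Cck and none in Gcg, Pyy or Sst. Sct was found on both sides, being high in 20.1% of Tph1-high and 18.5% of Tac1-high cells. These shares were below that of Sct-high cells among all WT Chga/Chgb cells (736 of 2475).

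**Figure D2:**
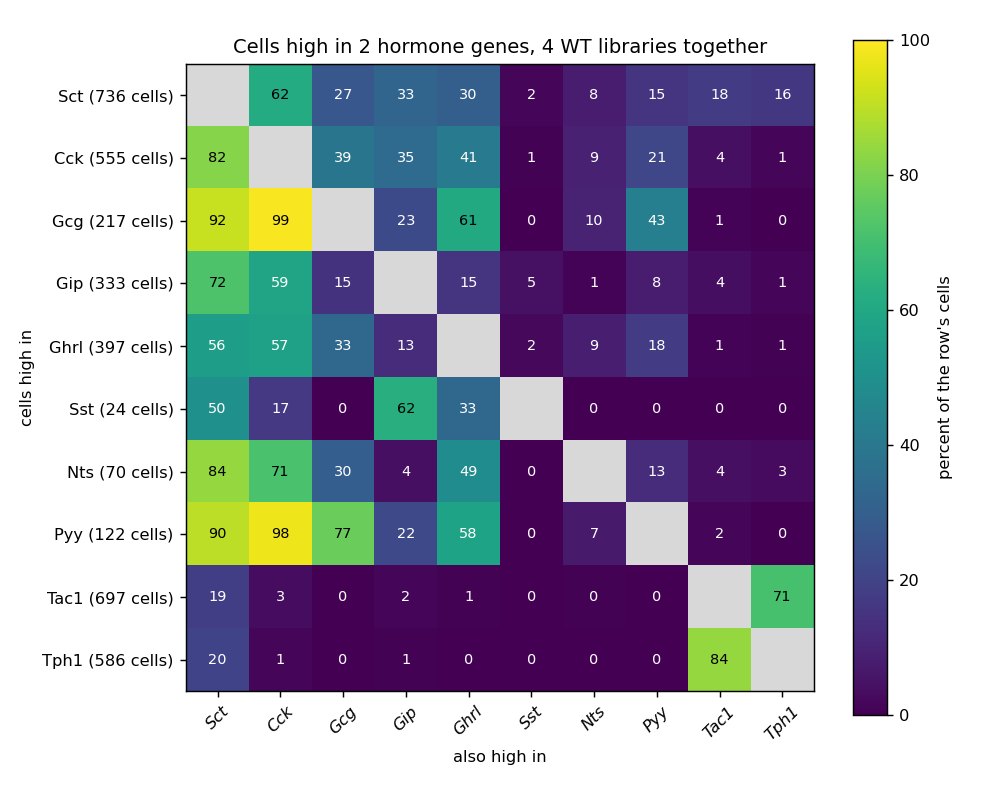
Percent of the WT Chga/Chgb cells high in the row's gene that were also high in the column's gene, with the 4 WT libraries counted together and the number of cells beside each row's name. Tac1 and Tph1 form a block of their own (84.1% and 70.7%) and share few cells with Cck, Gcg, Gip, Ghrl or Pyy. The Sct column is filled in every row, least in those of Tac1 and Tph1 (18.5% and 20.1%).

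The genes whose pattern across Chga/Chgb cells was most like each member were found among 10157 genes with a UMI in at least 2% of these cells in each library. The measure was the median over libraries of Pearson's r across cells of ln(1 + UMIs per 10000), a description over cells that share a library and differ in depth. Tph1 and Tac1 were each other's most similar gene (median r = 0.83 over 6 libraries, lowest 0.70). After Tph1, Tac1 was most like Chgb (0.68), one of the genes that define the cells, and Vim (0.68), encoding an intermediate filament. Sct was most like Cck (0.66 over 6 libraries, 0.70 in WT), and Cck most like Ffar1 (0.70), a receptor for long-chain fatty acids. Gcg was most like Cck (0.71 over the 4 WT libraries, the only ones with a Gcg UMI). Gip was most like Fabp5 (0.69 over 5 libraries), a fatty acid-binding protein, Ghrl like Plb1 (0.56), a phospholipase, Pyy like Cck (0.51), Nts like Agr3 (0.46) and Sst like Iapp (0.40), the gene of amylin. The search left out genes with 0 UMIs in CRISPR, among them Gcg, Sst and Nts. In WT Pyy was more like Gcg (median r = 0.63) than like Cck (0.56). The lowest correlation with these genes in a CRISPR library was 0.04 for Sct and 0.06 for Cck. The value of Sct rests on few UMIs (61 in -Dox and 171 in +Dox). Gip and Pyy had too few UMIs there for one to be read, and in WT alone their medians were 0.70 and 0.56.

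The first comparison asked whether EIPA changed the hormone genes of WT Chga/Chgb cells. Nts was higher with EIPA, from 711 and 552 CPM to 1618 and 1574 CPM, and the groups did not overlap. In edgeR's quasi-likelihood test this was a log2 fold change of 1.41 (SE 0.20, Benjamini-Hochberg adjusted p = 0.0402), within experiment 1 a 2.27-fold and within experiment 2 a 2.85-fold ratio. It was the only member among the 18 genes called of 11981 tested (0.15%, all higher). With the experiment as a block, 177 genes were called, and of the members again Nts alone (edgeR adjusted p = 5.14e-13). That fit rests on 2 pairs of libraries and leaves little to estimate their spread from. Its small p is therefore not read as the strength of the result.

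The call on Nts depended on the settings. Nts-high cells numbered 8 of 474 and 21 of 847 in -EIPA (1.69% and 2.48%) and 24 of 643 and 17 of 511 in +EIPA (3.73% and 3.33%). Of these high cells, those among the tenth of each library with the highest doublet scores numbered 1, 1, 4 and 8 in the same order, and after removing such cells the log2 change was 0.79 (adjusted p = 0.999). It also missed the threshold with library-size scaling (1.34, adjusted p = 0.0586), at a Chga+Chgb threshold of 20 per 10000 (1.54, adjusted p = 0.0713) and without -EIPA replicate 2 (1.25, adjusted p = 0.247). Enterocyte markers moved with it: 8 of 8 were detected in each library, and their sum in Chga/Chgb cells was 3569 and 2270 CPM in -EIPA and 6418 and 4286 CPM in +EIPA. Paneth markers (6 of 6 detected) summed to 3537 and 7600 CPM in -EIPA and to 6289 and 10984 CPM in +EIPA, higher within each experiment, and Chga, which helps to define the cells, was at 1951 and 2076 against 2707 and 3283 CPM. The part of these in the result was not tested.

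The other 9 members had adjusted p = 1.00 in this fit. Sct, at 1967 and 2077 CPM without and 2415 and 3036 CPM with EIPA, had a log2 change of 0.50 (SE 0.21, unadjusted p = 0.0397). Ghrl, at 2979 and 2788 against 2114 and 1954 CPM, had -0.43 (SE 0.20), and Gcg, at 1649 and 1735 against 1290 and 1219 CPM, had -0.36 (SE 0.19). Sct and Ghrl thus lay on opposite sides of 0, each with groups that did not overlap, and neither passed the adjusted test. For Cck (0.09, SE 0.26), Gip (0.24, SE 0.25), Sst (0.28, SE 0.23) and Pyy (-0.03, SE 0.22) the experiments pointed in opposite directions. Tph1 had 0.21 (SE 0.17) and Tac1 -0.09 (SE 0.18). In total, both +EIPA libraries lay above both -EIPA libraries for 3 members (Sct, Nts and Tph1) and below for 3 (Gcg, Ghrl and Tac1), where 8.24% and 21.3% of all genes tested lay above and below.

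In the rest of the cells no gene was called with EIPA by edgeR (0.0% of 15558 tested, with 1623 at an unadjusted p under 0.05; DESeq2 called 622 and the fit with the experiment as a block 1570, no member among them). The experiments disagreed there. Nts with EIPA was 9.48 times its level without in experiment 1 (12.6 and 1.33 CPM) and 1.45 times in experiment 2 (11.9 and 8.24 CPM), while Ghrl went from 12.7 to 53.2 CPM in experiment 1 and from 86.3 to 18.3 CPM in experiment 2. Nts was the 1 member with both +EIPA above both -EIPA libraries, where 13.7% of all genes were, and no member had both below, where 34.9% were. The fitted log2 changes were 1.43 (SE 0.82) for Nts, 0.90 (SE 0.99) for Sst, 0.49 (SE 0.55) for Sct, 0.41 (SE 0.77) for Pyy and 0.28 (SE 0.48) for Gip. They were -0.55 (SE 1.12) for Gcg, -0.41 (SE 0.93) for Cck, -0.40 (SE 0.99) for Ghrl, -0.37 (SE 0.36) for Tac1 and -0.21 (SE 0.36) for Tph1.

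**Figure D3:**
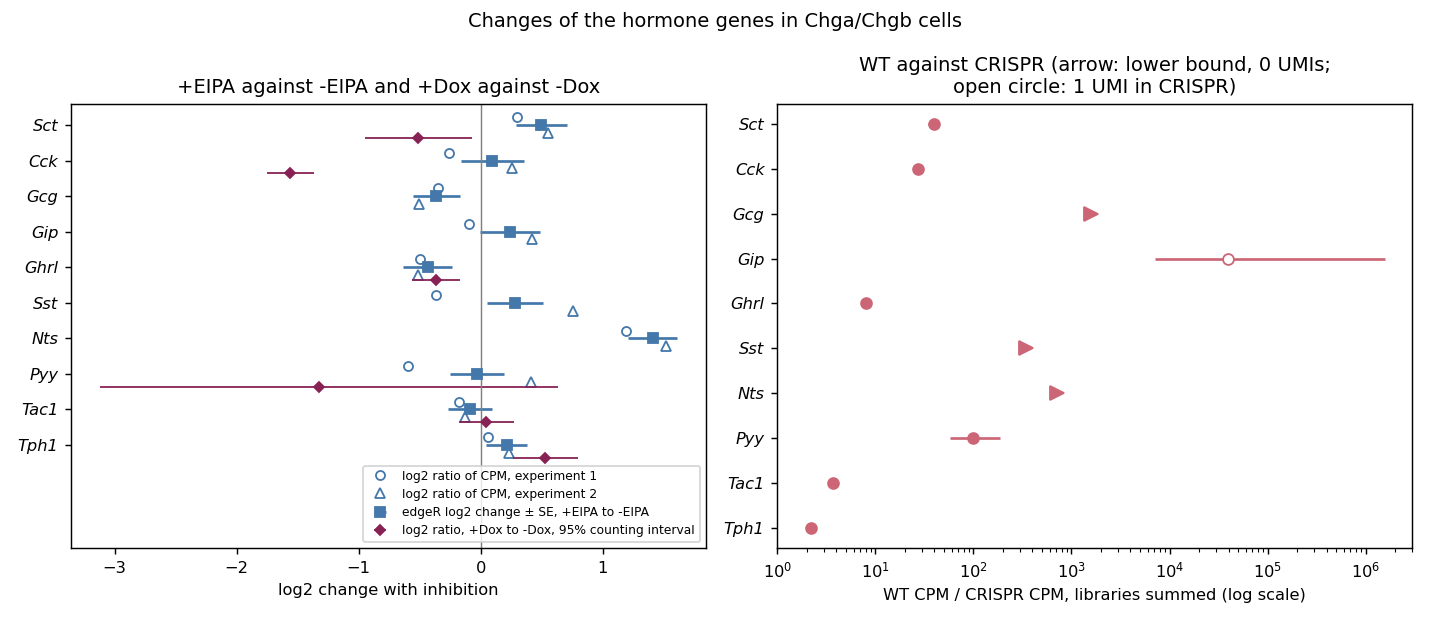
Left, log2 change of each hormone gene in Chga/Chgb cells with EIPA (squares, edgeR estimate ± SE over 2 against 2 libraries; open symbols, each experiment's CPM ratio) and with Dox (diamonds, 1 library against 1, with the 95% counting interval). Right, ratio of summed WT to summed CRISPR CPM on a log axis, with counting intervals, where arrows are lower bounds for genes with 0 UMIs and the open circle rests on 1 UMI. Nts stands apart from the others with EIPA, and Tph1 and Tac1 have the smallest ratios between the lines.

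The second comparison set the 4 WT libraries against both CRISPR libraries, with inhibition (EIPA or Dox) as a covariate. In Chga/Chgb cells the lowest WT library lay above the highest CRISPR library for Sct, Cck, Ghrl, Tac1 and Tph1, the 5 members with 10 or more UMIs in both CRISPR libraries, as it did for 11.8% of all genes tested. Of 11894 genes 1384 were called (11.6%), 680 lower in CRISPR (5.72%) and 704 higher (5.92%), with 1189 higher and 511 lower under library-size scaling, which moved the median log2 change of all genes from -0.02 to 0.14. The CRISPR libraries came from 1 preparation with no replicate clones recorded, so the p-values cover the spread between libraries and not between clones.

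Gcg, Sst and Nts had 0 UMIs in the 430 CRISPR Chga/Chgb cells, which held 770148 UMIs in -Dox and 3091306 in +Dox. Set against a floor of 3 UMIs over both libraries, the lowest WT library was at least 1569-fold higher for Gcg, at least 345-fold for Sst and at least 710-fold for Nts. Gip had 1 UMI, in +Dox, so that the summed WT level was 39685 times that of CRISPR, with a counting interval from 7123 to 1.57e+06. Pyy had 5 UMIs in -Dox and 8 in +Dox (6.49 and 2.59 CPM), a ratio of 99.3 (interval 58.1 to 186). These 5 genes passed the filter on low counts through the WT libraries alone, and so no count over them is given as support.

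The other 5 members were measured in both lines, and each was called lower in CRISPR. Sct was at 79.2 CPM in -Dox and 55.3 CPM in +Dox against 1967 to 3036 CPM in WT, a log2 change of -5.36 (SE 0.26, edgeR adjusted p = 2.56e-07). Cck was at 505 and 171 CPM against 5234 to 8046 CPM (-4.58, SE 0.37). Ghrl was at 373 and 289 CPM against 1954 to 2979 CPM (-3.04, SE 0.16). The enterochromaffin genes had the smallest changes. Tac1 stood at 266 and 275 CPM against 947 to 1082 CPM (-2.05, SE 0.15), and Tph1 at 180 and 260 CPM against 491 to 576 CPM (-1.46, SE 0.15, adjusted p = 8.35e-05). All 5 stayed called under each of the 14 alternatives, with the largest adjusted p at 0.0104 for Tph1. With the untreated libraries alone, 2 -EIPA against 1 -Dox, the changes were -4.85 for Sct (SE 0.36) and -1.68 for Tph1 (SE 0.29).

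Chga and Chgb, which define these cells, were themselves lower in CRISPR: Chga at 684 and 879 against 1951 to 3283 CPM, and Chgb at 9254 and 7768 against 13170 to 18697 CPM. Of 6 non-epithelial markers, 3 to 4 were detected in WT and 2 to 3 in CRISPR, with sums of 275 to 410 CPM and of 14.3 and 23.9 CPM. Vim alone made up 267 to 399 CPM of these sums in WT and 10.4 and 19.7 CPM in CRISPR. It was among the genes most like Tac1 across these cells, and stood at 0.581 to 1.26 CPM in the rest of WT. Pecam1 was at 6.26 to 8.09 CPM in WT and at 3.90 and 2.91 CPM in CRISPR. Both were called lower by edgeR, Pecam1 on few UMIs, while Ptprc, Col1a1, Cd3e and Lyz2 were each between 0 and 2.49 CPM. Tuft markers, 5 to 6 of 6 detected in WT, summed to under 20 CPM there and to 2.26 CPM in +Dox, with none of 6 in -Dox. Enterocyte markers (8 of 8 in each library) summed to 2270 to 6418 CPM in WT and to 3681 and 9118 CPM in CRISPR, Paneth markers (6 of 6) to 3537 to 10984 and 3523 and 8578 CPM, and stem markers (5 of 5) to 933 to 1425 and 1335 and 2559 CPM. Goblet markers (6 of 6) summed to 2283 to 3005 CPM in WT and to 1240 and 2813 CPM in CRISPR, and cycling markers (4 of 4) to 271 to 420 and to 339 and 354 CPM. Of these sets, the sums of tuft and non-epithelial markers did not overlap between the lines, and the others did. Within the overlapping sets edgeR called Sis higher in CRISPR (1827 and 2143 against 454 to 666 CPM, log2 change 1.62, SE 0.15). Lct was also called higher (1.30 and 17.5 against 0.83 to 4.38 CPM), on few UMIs in -Dox. Its -Dox level lay within the WT range, so that call is not given as support. Agr2 was called lower (173 and 212 against 314 to 399 CPM, -1.06, SE 0.13). The part of these differences in the hormone results was not tested.

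The shares of high cells were lower in CRISPR as well. Sct was high in 3 of 130 -Dox cells (2.31%) and 5 of 300 +Dox cells (1.67%) against 20.7% to 35.6% in WT. Cck was high in 8.46% and 5.00% against 18.8% to 24.8%, Ghrl in 6.92% and 4.67% against 14.8% to 17.8%, Tac1 in 13.1% and 8.67% against 25.5% to 30.6%, and Tph1 in 6.92% and 10.7% against 22.4% or more in each WT library. For Gcg, Gip, Sst and Nts the share was 0 of 430, which allows up to 0.698% by the limit of 3 counts; the Sst share in WT was near that limit. With no limit on genes or mitochondrial share, Sct and Cck were still higher in all WT than in both CRISPR libraries, and Ghrl, Tac1 and Tph1 were not (for Tac1, 11.1% in both -EIPA 1 and -Dox). In total, 28.5% of -Dox and 23.0% of +Dox cells were high in at least 1 member, and 8.46% and 7.33% in 2 or more.

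**Figure D4:**
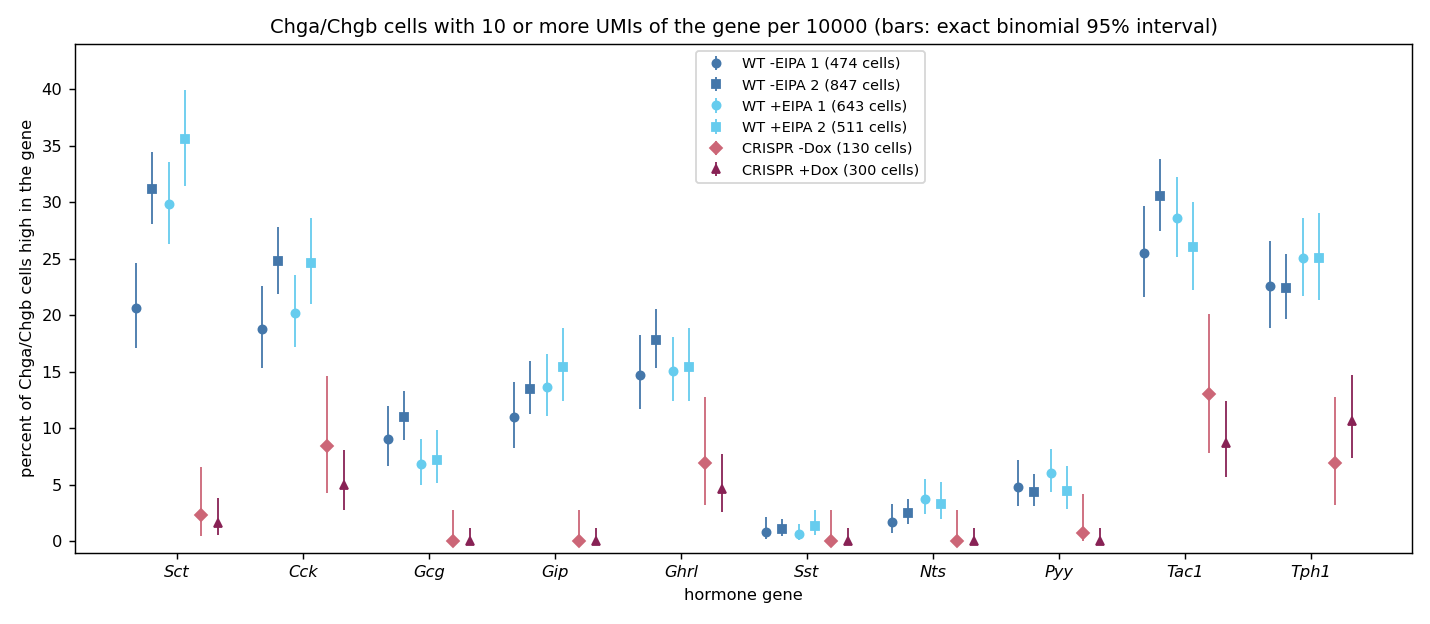
Percent of Chga/Chgb cells with 10 or more UMIs of the gene per 10000, 1 point per library with its exact binomial 95% interval. For Sct, Cck, Ghrl, Tac1 and Tph1 the WT libraries lie above both CRISPR libraries, where the other genes have 0 or 1 high cell, and for Ghrl, Sst, Nts and Pyy the interval of a CRISPR library overlaps that of a WT library, for Sst (0.622% to 1.37% against 0 cells) in each pair.

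The level in the high cells themselves differed by gene. Summed over high cells, Tph1 stood at 2266 to 2678 CPM in WT and at 2311 and 2555 CPM in CRISPR, within the WT range. Tac1 was at 3559 to 4220 CPM in WT and 2172 and 2930 CPM in CRISPR, Sct at 7803 to 9377 against 2714 and 2947 CPM, and Cck at 26276 to 33602 against 7004 and 4149 CPM. The CRISPR values for Sct rest on 3 and 5 cells and those for Cck on 11 and 15. Since a cell was called high from the same counts, these levels have a floor and are given without a test.

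Because Chga and Chgb differed between the lines, cells were also compared within ranges of Chga+Chgb chosen after the values had been seen. Among cells at 200 or more per 10000, 88.8% to 89.4% of WT cells were high in at least 1 member, and 81.0% of 21 -Dox and 75.0% of 48 +Dox cells. Their summed member level was 9688 to 14618 CPM in WT and 6330 and 3623 CPM in CRISPR. In the range from 20 to 50 the share was 45.7% to 67.4% of WT cells, and 13.8% of 29 -Dox and 6.98% of 86 +Dox cells. At 200 or more, Tph1 was high in 61.7% to 70.6% of WT cells and in 38.1% of -Dox (8 of 21) and 62.5% of +Dox cells (30 of 48). Of the 5 members measured in both lines Sct and Tac1 were still higher in all WT than in both CRISPR libraries. Sct was high in 17.8% to 31.8% of WT cells, in 1 of 21 -Dox and in 1 of 48 +Dox cells. Tac1 was high in 67.5% to 75.5% of WT cells, in 11 of 21 -Dox and in 19 of 48 +Dox cells. The -Dox intervals of Sct (0.12% to 23.8%) and Tac1 (29.8% to 74.3%) reached into the WT range. Cck was high in 33.3% of -Dox (7 of 21) against 6.14% to 8.24% of WT cells there. Just outside the threshold, at 5 to 10 per 10000, 14.1% to 52.8% of WT cells and 11.5% and 5.00% of CRISPR cells were high in a member. Library -EIPA 1 was the lowest of the WT libraries up to 50 per 10000 (23.7% at 10 to 20, against 48.1% to 68.5% in the others).

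**Figure D5:**
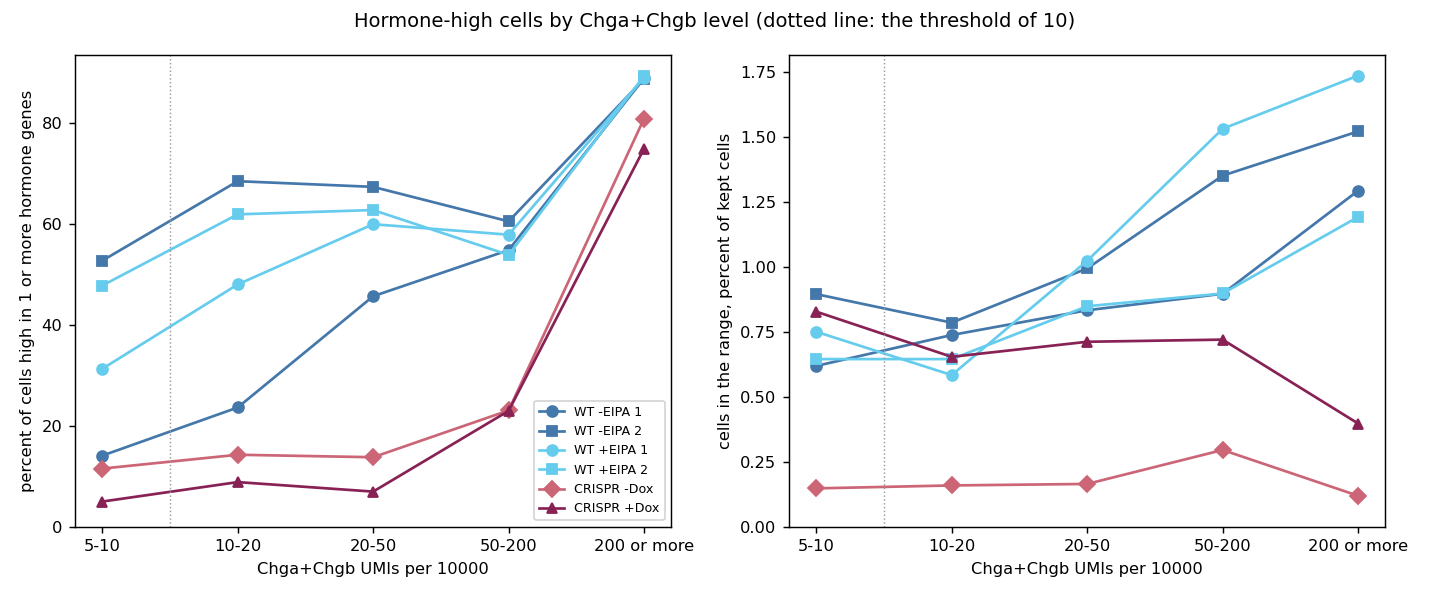
Left, percent of cells high in at least 1 hormone gene by range of Chga+Chgb UMIs per 10000, 1 line per library. Right, the cells in each range as a percent of all cells kept in the library. In the highest range CRISPR (81.0% and 75.0%) lies below WT (88.8% to 89.4%), and in the range from 20 to 50 further below it (13.8% and 6.98% against 45.7% to 67.4%).

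The pairing of Tac1 and Tph1 was seen in CRISPR as well. Of Tph1-high cells 7 of 9 in -Dox and 15 of 32 in +Dox were Tac1-high (77.8% and 46.9%), against 82.2% to 86.3% in WT. Of Tac1-high cells 41.2% of 17 in -Dox and 57.7% of 26 in +Dox were Tph1-high, against 63.3% to 81.2% in WT. Cck was less apart from the pair, on few cells. Of Cck-high cells 4 of 11 in -Dox and 2 of 15 in +Dox were Tac1-high, against 2.86% to 6.74% in WT. Of the 8 Sct-high CRISPR cells 1 was Cck-high.

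Genes that work beside the hormones were counted in lists. Of 20 EEC transcription factors tested, 3 were called higher in CRISPR Chga/Chgb cells and 7 lower, where 5.92% and 5.72% of all genes were called in these directions. List genes with under 10 UMIs in a CRISPR library, here Egr3 (3 and 10 UMIs) and Hhex (0 and 1), entered the test mainly through WT, and so their calls are given with the UMIs, not as support and without a fold. Pax4, a factor of early endocrine progenitors, was at 177.9 CPM in -Dox and 185 CPM in +Dox against 27.0 to 50.3 CPM in WT (log2 change 2.02, SE 0.21). Neurog3, which starts the EEC fate, was at 445 and 338 CPM against 199.8 to 256 CPM (0.61, SE 0.13), and Fev, of the enterochromaffin branch, at 329.8 and 290.2 CPM against 134 to 190.5 CPM (0.70, SE 0.14). Lower were, among others, Isl1 (28.6 CPM in -Dox and less in +Dox, against 104 to 161 CPM, -3.25, SE 0.26), a factor of hormone cells, and Pax6 (23.4 and 14.2 CPM against 77.6 to 104 CPM, -2.61, SE 0.21), together with Nkx2-2 (-1.62, SE 0.19) and Lmx1a (-0.97, SE 0.19). Pax4, Isl1, Pax6 and Nkx2-2 held under all 14 alternatives. Neurog3, Fev and Lmx1a were lost when either CRISPR library was left out, and Neurog3 and Fev in untreated libraries alone too.

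Of 19 hormone processing and granule genes tested, 13 were called lower, 6 of them with under 10 UMIs in a CRISPR library, and 1, Stx1a, higher (1.00, SE 0.20), a call lost when either CRISPR library was left out. Pcsk1, the convertase that cuts several prohormones, was one of the 6, at 2 and 3 UMIs (2.60 and 0.97 CPM) in CRISPR against 118 to 158 CPM. Scg2, a granule protein, was at 19.5 and 7.44 CPM against 99.0 to 152 CPM (-3.69, SE 0.32). Scgn, a calcium-binding protein, had -3.10 (SE 0.22), and Pcsk1n, Pam, Cpe, Ptprn2 and Snap25 had -3.10 to -0.74. The others with few UMIs were Resp18 (2 and 23), Ptprn (3 and 13), Vgf (6 and 21), Scg5 and Scg3 (1 and 0 each). Without +Dox 5 of the 13 were still called, and without -Dox 10.

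Of 8 serotonin genes tested, 1 was called, with too few UMIs to serve as support. It was Maob, a monoamine oxidase (0 UMIs in CRISPR, 9.25 to 16.1 CPM in WT), a call lost without +Dox. Both Ddc and Slc18a1 were named after their values were seen. Ddc, which makes serotonin from the product of TPH1, was at 401 and 279 CPM in CRISPR against 338 to 432 CPM in WT (-0.39, SE 0.15, adjusted p = 0.14), and Slc18a1, the vesicle transporter, at 142 and 123 CPM against 120 to 141 CPM (-0.16, SE 0.13, adjusted p = 0.49). Among 8 nutrient and bile acid receptors and sensors tested, 5 were lower, 4 of them with under 10 UMIs in a CRISPR library. The call that did not rest on so few was Ffar1 (20.8 and 10.7 CPM against 52.2 to 70.1 CPM, -2.21, SE 0.21), which held under all 14 alternatives. The other 4 were Gpr119 (0 and 5 UMIs), Trpa1 (6 and 8), Ffar3 (2 and 1) and Trpc4 (0 in both), of which the last 3 were lost without +Dox. The glucose transporter Slc5a1 was higher (1.16, SE 0.20), a call lost without +Dox and in untreated libraries alone. Of 7 other gut peptide genes tested, Iapp was higher, at 612 and 450 CPM against 27.4 to 112 CPM (3.13, SE 0.38), and Insl5 lower (0 UMIs in CRISPR, and a call lost by DESeq2 and when either CRISPR library was left out). Of the genes searched, Iapp was the one most like Sst in WT, and Sst had 0 UMIs in CRISPR. Of 20 receptors of the members' products, 5 could be tested and 2, Sstr1 and Sstr5, both receptors of somatostatin, were called lower on few UMIs. Sstr1 was at 0 and 0.32 CPM in CRISPR (0 and 1 UMIs) against 3.19 to 6.82 CPM and Sstr5 at 3.90 and 1.94 (3 and 6 UMIs) against 6.19 to 11.3 CPM, and both calls were lost in untreated libraries alone and when either CRISPR library was left out. With EIPA no gene of the 6 lists was called in Chga/Chgb cells.

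Doxycycline was compared in 1 library against 1, with no replicate and no test. Of the 6 members with 4 or more UMIs, 4 were lower in +Dox. Cck was 0.339 times its -Dox level (log2 -1.56, counting interval -1.75 to -1.37), with 192 of 389 UMIs in -Dox and 160 of 529 in +Dox from 1 cell each. Without those cells, an alternative added after seeing the data, it was 0.465 times. Left out in the same way, the richest Sct cells moved Sct from 0.698 to 0.853 times its -Dox level (log2 interval -0.78 to 0.35). Pyy was 0.399 times, on 13 UMIs (interval -3.12 to 0.63). These were past 2-fold, as were 9.07% of 11317 genes (4.92% higher and 4.15% lower). Sct (0.698 times, log2 interval -0.95 to -0.07) and Ghrl (0.775 times) were within 2-fold. Tph1 was at 1.44 times its -Dox level (interval 0.27 to 0.80 in log2) and Tac1 at 1.03 times (interval -0.18 to 0.27). Without the cells of the highest doublet scores Tph1 was 1.18 times its -Dox level, with an interval that included 0 (-0.03 to 0.52), and Ghrl was 1.13 times and Tac1 0.765 times its -Dox level, so that Ghrl and Tac1 turned direction. In the rest, Tac1 (0.108 and 0.295 CPM) and Tph1 (0.0302 and 0.283 CPM, with under 10 UMIs in -Dox) were more than 2-fold higher in +Dox. So were 8.3% of genes, with 3.14% lower and 11.4% in all, and Chga and Chgb were 3.15 and 2.84 times higher there. Also past 2-fold, on few UMIs or few cells, were Pyy (2 and 9 UMIs, 4.47 times), Sst (3 and 8 UMIs, 2.65 times) and Nts (0 and 454 UMIs). Sct (1.01 times), Ghrl (1.14 times) and Cck (1.75 times) were within 2-fold, Gip had 0 and 7 UMIs and Gcg none.

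Hormone transcripts were also found below the Chga+Chgb threshold. All 697 Tac1-high and 586 Tph1-high WT cells were Chga/Chgb cells. By contrast 57.6% to 83.9% of Gip-high, 65.7% to 86.4% of Ghrl-high and 36.4% to 66.7% of Sst-high WT cells were. In WT rest cells, Gip-high cells held 85.4% to 90.5% of the Gip UMIs, and still 16.8% to 34.5% of rest cells had at least 1 Gip UMI at median depths of 11594 to 14651 UMIs, and 0 to 0.0594% of CRISPR rest cells did. Thinned to 2000 UMIs per cell, with 15 to 96 shallower cells per library left out, the shares were 3.30% to 7.93% in WT and 0 to 0.0255% in CRISPR. A single Gip UMI was not read as expression, and its source was not tested. In CRISPR 18 of 27 Ghrl-high cells in -Dox and 12 of 26 in +Dox lay outside the threshold.

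Between the lines, 24.5% of 16227 genes were called in the rest (12.6% higher and 11.8% lower in CRISPR), and all WT libraries lay above both CRISPR libraries for 14.2% of genes. Gcg, Gip, Sst and Pyy had 9 or fewer UMIs in each CRISPR library there, and no count over them is given as support. Sct was at 0.513 and 0.518 CPM against 13.8 to 42.9 CPM (-6.00, SE 0.61, adjusted p = 0.00199), though in WT only 18.1% to 55.4% of its UMIs in the rest came from Sct-high cells. Cck was at 0.556 and 0.976 CPM against 17.1 to 108.7 CPM (-6.19, SE 1.07, adjusted p = 0.0112). Tac1, at 0.108 and 0.295 against 1.74 to 3.55 CPM (-3.63, SE 0.56), and Tph1, at 0.0302 and 0.283 against 0.777 to 1.48 CPM, were also called lower, with no high cell in the rest of any library. Tph1 had under 10 UMIs in -Dox, so its call is given without a fold and not as support. Gcg had 0 UMIs against 2.80 to 32.1 CPM, Gip 0 and 0.03 against 100.1 to 251 CPM, Sst 0.0129 and 0.0342 against 1.64 to 16.0 CPM and Pyy 0.00862 and 0.0385 against 0.859 to 4.22 CPM. Ghrl was at 9.15 and 10.4 CPM against 12.7 to 86.3 CPM (-2.18, SE 0.85, adjusted p = 0.115) and Nts at 0 and 1.94 CPM against 1.33 to 12.6 CPM (adjusted p = 0.0736). The call on Sct was lost in untreated libraries alone (adjusted p = 0.0510), that on Cck there and when either CRISPR library was left out, that on Tac1 without -Dox, and that on Tph1 without -Dox and without each WT library but -EIPA 2. Library -EIPA 1 was the lowest WT library for each member but Tac1. Of the 454 Nts UMIs in +Dox rest cells, 85.7% came from 3 cells with 166, 141 and 82 Nts UMIs. Those 3 cells had no UMI of any other member and 1, 0 and 0 UMIs of Chga and Chgb, at 26391, 44132 and 68833 UMIs.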

How the data were processed

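Single cells of mouse small intestinal organoids were profiled on day 3 by droplet 3′ sequencing (10x), and, per the study's methods, the authors aligned reads to mm10 with Cell Ranger 6.1.2 and deposited raw UMI counts, 1 filtered matrix per library. UMIs are collapsed to molecules, so 3′ counts are not scaled by length. The depth per library and the intervals that it gives stand in the report.

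Cells with 1000 or more genes and under 20% mitochondrial UMIs were kept, and those with Chga+Chgb of 10 or more per 10000 UMIs formed the Chga/Chgb cells. Counts were summed per library and tested with edgeR 4.0.16 (quasi-likelihood, TMM, filterByExpr, Benjamini-Hochberg over all genes tested, threshold 0.05) in R 4.3.3, tested on simulated data first. There, 8.10% of edgeR's calls were false for EIPA in Chga/Chgb cells and 13.0% in the rest. For the line these were 5.85% and 6.53%, so each lay above the threshold. Of DESeq2's calls, 3.70% and 29.3% were false for EIPA and 1.61% and 25.5% for the line. EIPA was tested in the 4 WT libraries, and the line in all 6 with inhibition as a covariate. With 1 library each, +Dox and -Dox were compared without a test, past 2-fold being called. Intervals are exact 95% Poisson or binomial ones, and a share of 0 is given with the limit of 3 counts. Replicates are the study's experiments 1 and 2, and nothing used here says that they came from separate mice. Deviations of +EIPA and -EIPA libraries of the same number correlated at r = 0.413 in Chga/Chgb cells and 0.701 in the rest, across genes, and the experiment as a block was an alternative.

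Other alternatives were DESeq2 1.42.0, library-size scaling, no filter on low counts, Chga+Chgb thresholds of 5 and 20, all deposited barcodes, untreated libraries alone, each library left out, and, added after seeing the data, a threshold of 200 and, for Dox, the richest cell left out. Doublets stayed in the main analysis. Scrublet (scanpy 1.11.5) set a threshold that called 0 cells in 2 libraries, and so the cells with the highest 10% of scores in each library were removed instead.

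All 10 members are given in each comparison, and genes of the lists are named where called, except 1 transcription factor that, like the gene the guide is directed to, is not reported here. The members and lists were chosen with earlier results of these data known.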

Additional observations from a re-analysis of the deposited data

Results flagged for a closer look

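Sct and Tac1 had ratios of opposite sign with EIPA and with doxycycline in Chga/Chgb cells, though neither was called with EIPA (edgeR adjusted p = 1.00 for both). With EIPA, Sct had log2 ratios of 0.30 (experiment 1) and 0.55 (experiment 2), and with doxycycline one of -0.52. For Tac1 these were -0.18, -0.13 and 0.0451. The difference between both routes was not tested, since doxycycline was given in 1 library, sorted on GFP. Without the richest cell of each library, Sct had -0.23 with doxycycline, with a 95% counting interval from -0.78 to 0.35. The interval of Tac1 with doxycycline, -0.18 to 0.27, included 0, and without the cells of the highest doublet scores its ratio turned to -0.39. Of the 10 hormone genes in Chga/Chgb cells and in the rest, 1 had a WT library that stood far from the other 3, by a test that flags about 1 in 20 groups by chance. It was Sst in the rest, at 1.64 CPM in -EIPA 1 against 15.4 to 16.0 CPM in the others. These 4 libraries include both treatments.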

How the results depend on the processing

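Between the lines, Sct, Cck, Ghrl, Tac1 and Tph1, the 5 hormone genes measured in both, kept their direction and call in Chga/Chgb cells under all 14 alternatives. The number of genes called there was 1384, 474 with untreated libraries alone and 207 to 1458 with single libraries left out (572 without -Dox, 207 without +Dox). In the rest it was 3971, 353 with untreated libraries alone and 785 to 3651 with single libraries left out (1159 without -Dox, 785 without +Dox, 2613 without +EIPA 1 and 2418 without +EIPA 2), with 18 calls on members lost and 6 gained. With EIPA, 18 genes were called in Chga/Chgb cells, 37 by DESeq2, 9 with library-size scaling, 157 with no filter on low counts, 28 at a threshold of 20, 0 without the highest doublet scores (220 at an unadjusted p under 0.05), and 10 to 100 with single libraries left out (38 without -EIPA 1, 10 without -EIPA 2, 47 without +EIPA 1 and 100 without +EIPA 2). With the replicate number as a block it was 177. In the rest 0 were called, 622 by DESeq2, 257 with no filter, 1570 with the block, and 0 to 109 with single libraries left out (109 without -EIPA 1 and 4 without +EIPA 1). The block changed the call of no member. At a Chga+Chgb threshold of 200, an alternative added after seeing the data, Sct and Tac1, of the 5 hormone genes measured in both lines, still had higher shares of high cells in all WT libraries. The -Dox intervals of both shares, on 21 cells, reached into the WT range. No called value changed sign, but without the highest doublet scores the uncalled +Dox to -Dox log2 ratios of Ghrl (-0.37) and Tac1 (0.0451) turned to 0.17 and -0.39. The causes were not tested. A lone library was assumed to vary like the others, and the 130 cells of -Dox limit precision.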

Other observations

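In the rest of the cells, of 19 hormone processing and granule genes tested, 8 were called lower in CRISPR by edgeR and none higher, where 11.8% of all genes were called lower. They were Pcsk1, Resp18, Scg5 and Scg2, each with under 10 UMIs in either CRISPR library, and Ptprn, Scgn, Ptprn2 and Pcsk1n. When either CRISPR library was left out, 2 of these were left, Resp18 and Pcsk1, and in untreated libraries alone none. Of 20 EEC transcription factors 4 were lower (Isl1, Nkx2-2, Egr3 and Pax6) and 1, Mnx1, higher, where 12.6% of all genes were called higher, and when either CRISPR library was left out, none was called. Isl1 had a log2 change of -4.71 (SE 0.80) on 10 and 22 UMIs in CRISPR. Of 7 nutrient and bile acid receptors and sensors, Slc5a1 was higher and Ffar1, Ffar3, Trpa1 and Gpr119 lower, these 4 with under 10 UMIs in a CRISPR library. Each of these calls was lost in untreated libraries alone. Without +Dox, those on Slc5a1, Ffar1, Trpa1 and Gpr119 were lost. Of 8 serotonin genes Ddc (-0.59, SE 0.09) and Maob (15 and 6 UMIs in CRISPR) were lower. The call on Ddc was lost in untreated libraries alone and without +Dox, and that on Maob under no alternative. Of 4 receptors of the hormone products, Htr4 was higher (0.73, SE 0.15) and Sstr5 lower (3 and 2 UMIs in CRISPR). Both calls were lost in untreated libraries alone, without either CRISPR library and without either +EIPA library.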
